A study of Mus musculus with 149 samples.

Results

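The mu-class glutathione transferases are a family of cytosolic enzymes, and 5 of their genes (Gstm1, Gstm2, Gstm3, Gstm4 and Gstm6) are described here by their rows in the deposited table, out of 20308 mouse genes. Glutathione transferases join the tripeptide glutathione to reactive, electrophilic compounds, many of them produced by cytochrome P450 enzymes, and the products are pumped out of the cell into bile or blood. In the liver most drug-metabolising P450 enzymes are made by pericentral hepatocytes, those around the central vein where blood leaves the lobule, while periportal hepatocytes sit where blood enters. The mu-class genes form a cluster in the genome, and several members are known in rodent liver to be induced by foreign chemicals.

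RNA was sequenced from 149 single cells of a hepatocyte preparation from 1 wild-type male C57BL/6 mouse aged 8 weeks. The labels name no treatment of the animal beyond isoflurane anaesthesia before it was killed. The liver was perfused to free the cells, and repeated slow spins enriched for hepatocytes. Cells were captured on Fluidigm C1 chips of 3 trap sizes, which gave 80 cells in the large chip (17 to 25 µm), 30 in the medium chip (10 to 17 µm) and 39 in the small chip (5 to 10 µm). Every cell came from the same animal and each chip is 1 sample, so no p-value is given and every SD is a spread over cells. The values are the authors' normalised expected counts, which are not scaled by transcript length, and the read depth behind them is unknown.

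The 5 genes lie in a row on the minus strand of chromosome 3 (GRCm38, the mm10 build, GENCODE M21). From low to high coordinate they are Gstm6 (107938847 to 107943749), Gstm3 (107963696 to 107969283), Gstm2 (107981702 to 107986453), Gstm1 (108012255 to 108017973) and Gstm4 (108040408 to 108044894). Each principal transcript has 8 exons and a coding length of 654 bases. The first 60 coding bases of each are shown because the likeness of the members bears on how reads could be assigned to them. Capitals mark the bases that differ from Gstm1, of which there are 12 in Gstm2, 9 in Gstm3, 14 in Gstm4 and 16 in Gstm6.
Gstm1: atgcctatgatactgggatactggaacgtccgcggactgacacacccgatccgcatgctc
Gstm2: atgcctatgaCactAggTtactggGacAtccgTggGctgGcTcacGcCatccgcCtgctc
Gstm3: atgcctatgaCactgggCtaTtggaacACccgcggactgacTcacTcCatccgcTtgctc
Gstm4: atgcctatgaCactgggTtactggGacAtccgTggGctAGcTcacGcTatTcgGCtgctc
Gstm6: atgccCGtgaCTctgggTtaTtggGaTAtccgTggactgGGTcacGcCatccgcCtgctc

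Over the whole coding sequence the members were 79.1% (Gstm3 and Gstm4) to 89.4% (Gstm1 and Gstm3) identical. Of all 50-base words in the transcript, 10.9% in Gstm1 also occurred in Gstm2 or Gstm3, 15.8% in Gstm3 occurred in Gstm1 or Gstm6, 6.88% in Gstm6 occurred in Gstm3 and 1.08% in Gstm2 occurred in Gstm1. Gstm4 shared no such word with another annotated gene. When annotated copies that have no row in the table, pseudogenes among them, were counted too, the shares were 23.1% for Gstm1, 9.36% for Gstm2, 28.8% for Gstm3 and 11.8% for Gstm6. Reads from those stretches could have been split between copies by the authors' counting. The exact levels of Gstm1, Gstm3, Gstm6 and, to a lesser degree, Gstm2 are therefore less certain than that of Gstm4.

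The 100 bases before the RefSeq start (GRCm38.p6) are shown for Gstm2 and Gstm4, because Gstm2 had the steepest and Gstm4 the flattest gradient of the 5 genes below. Capitals mark the letters CCAAT, read on either strand (ATTGG on the other). Gstm2 lies at chr3:107986421-107986520 and Gstm4 at chr3:108044860-108044959, both on the minus strand. The RefSeq start lies 33 bases (Gstm2) and 35 bases (Gstm4) inside the first exon of the GENCODE transcript.
Gstm2: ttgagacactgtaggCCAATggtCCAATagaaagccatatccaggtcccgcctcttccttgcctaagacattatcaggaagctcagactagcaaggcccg
Gstm4: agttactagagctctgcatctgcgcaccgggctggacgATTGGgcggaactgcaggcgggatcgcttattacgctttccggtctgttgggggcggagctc

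In the 250 bases before the start, on both strands, CCAAT occurred 2 times in Gstm2 and Gstm6, 1 time in Gstm1 and Gstm4 and 0 times in Gstm3, while 33.9% of 32841 promoters of that length held it. The letters TATAA (22.8% of promoters), TGACNNNGC (10.2%) and CTTTGNT (16.0%) had 0 matches in the 5 windows. These motifs do not overlap one another, and a match is only a match of letters.

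The chips differed in the share of each cell's summed values taken by ERCC spike-ins, synthetic RNAs added to the lysis mix. Its median was 3.66% over large-chip cells (1.24% to 92.3%), 82.7% over medium-chip cells (2.91% to 96.8%) and 82.8% over small-chip cells (2.36% to 96.6%). Values are therefore also given for cells with a share under 50%, which were 64 large-chip, 7 medium-chip and 12 small-chip cells. Summed values of these cells, spike-ins included, had medians of 1.81e+06 (large), 1.93e+06 (medium) and 4.70e+06 (small). They ran from 1.46e+06 to 5.63e+06 within the large chip, so levels under the spike-in limit are not on 1 scale between cells or chips. Over all cells the medians were 1.82e+06 (large), 5.68e+06 (medium) and 5.54e+06 (small), so the same holds without the limit. All 149 cells held at least 3 of 6 hepatocyte markers (Alb, Ttr, Apoa1, Serpina1a, Tat and Cps1) at 10 or more. At the same level, 3 of 6 endothelial markers were found in 6 large-chip, 0 medium-chip and 1 small-chip cells, 3 of 5 Kupffer markers in 0, 3 and 1, 3 of 6 stellate markers in 0, 1 and 0, and 3 of 5 bile duct markers in 3, 0 and 0.

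Gstm1 was the most abundant of the 5 genes in nearly every cell, and the others were above 0 in some cells and listed at 0 in the rest. It had a value above 0 in all 149 cells, from 3.94 to 18899.8. Gstm4 was above 0 in 84 cells, Gstm6 in 79, Gstm3 in 68 and Gstm2 in 56. In the large chip the count of cells above 0 was 80 of 80 for Gstm1 (exact Clopper-Pearson 95% interval 95.5% to 100%), 64 for Gstm6 (80%, 69.6% to 88.1%), 62 for Gstm4 (77.5%, 66.8% to 86.1%), 54 for Gstm3 (67.5%, 56.1% to 77.6%) and 42 for Gstm2 (52.5%, 41% to 63.8%). These intervals cover counting error only, and neighbours in this order overlap except for Gstm1 and Gstm6.

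Per kilobase of transcript, Gstm1 was highest of the 5 in 79 of 80 large-chip cells, 30 of 30 medium-chip cells and 38 of 39 small-chip cells. Its length-scaled level in the large chip had a median of 2319 and a mean of 2815 ± 2516 per kilobase (SD, n = 80 cells). Gstm6 followed with a mean of 107 ± 120 per kilobase and a median of 90.1. The means of Gstm3 (58.7 ± 137), Gstm2 (57.6 ± 146) and Gstm4 (28.8 ± 31.6) per kilobase differed by less than their SDs. By median per kilobase the order was Gstm4 (17.1), Gstm3 (10.2) and Gstm2 (0.47), so the order of those 3 genes depends on the summary. Gstm1 made up a median of 94.1% of the members' length-scaled sum in the large chip. The exceptions were large-chip cell 15, where Gstm6 had 623.24 and Gstm1 124.59 normalised expected counts, and small-chip cell 1, where Gstm4 had 215.29 and Gstm1 147.39.

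**Figure D1:**
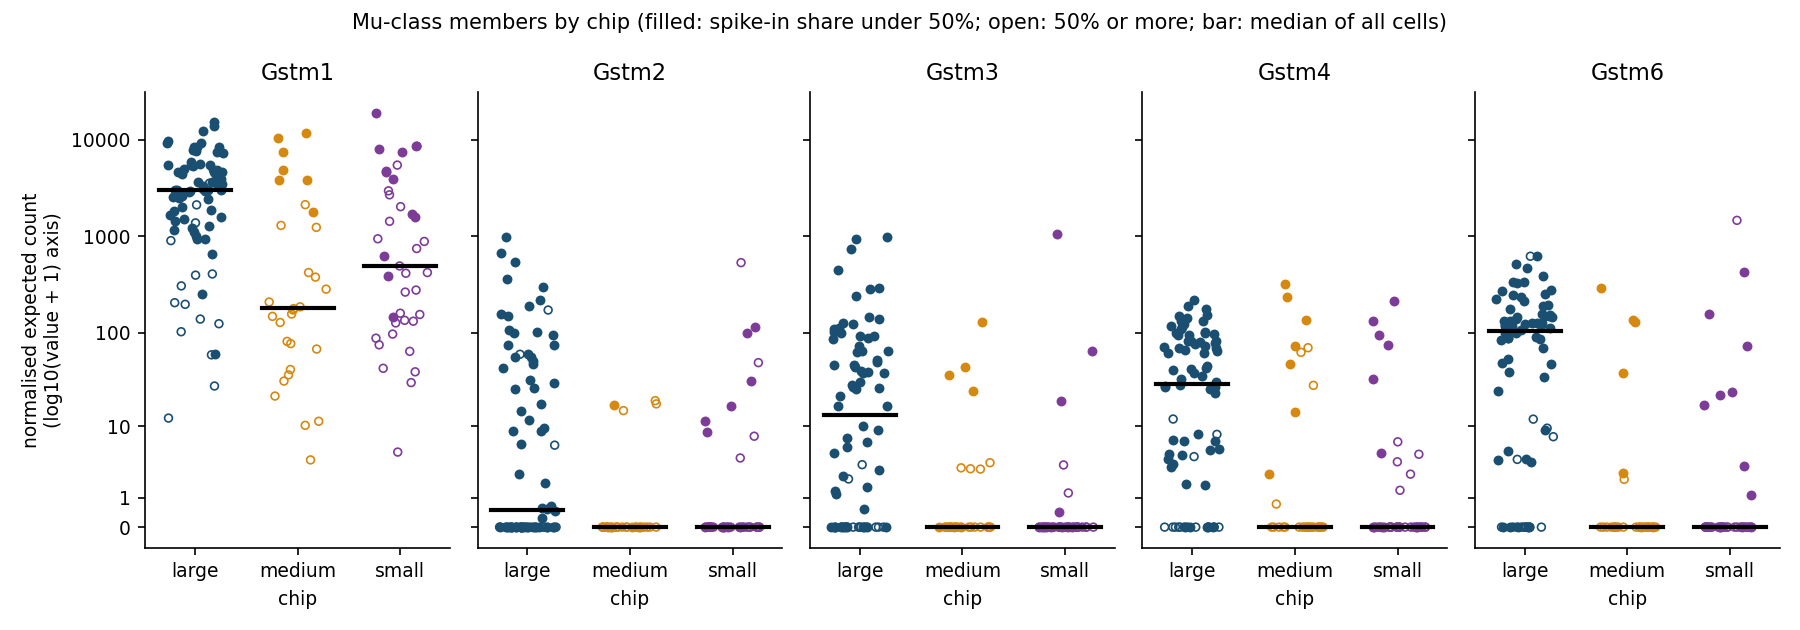
Normalised expected counts of the 5 genes in each cell, on a log10(value + 1) axis, by chip (80 large, 30 medium and 39 small cells), with filled points for a spike-in share under 50%, open points for 50% or more and a bar at the median of all cells. Gstm1 is above 0 in every cell, and the medians of the other 4 genes are 0 in the medium and small chips.

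By chip, Gstm1 ran from 12.3 over a median of 2989 to 15296 in the large chip, from 3.94 over 183 to 11609 in the medium one and from 4.95 over 494 to 18900 in the small one (normalised expected counts). Its mean was 3628 ± 3243, 1694 ± 3066 and 2292 ± 3766 (SD over 80, 30 and 39 cells). The chips overlapped over nearly their whole range, and low values went with high spike-in shares. Among cells with a share under 50% the medians were 3326 (large), 4788 (medium) and 4302 (small), and among the others 257, 149 and 265. Within either class of cells these medians differed by less than the SD over cells. The part of the spike-in share in the chip differences was not tested.

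The other members had a median of 0 in the medium and small chips. Gstm2 reached 994.6 over large-chip cells (mean 61.3 ± 155), 19.2 over medium-chip cells (2.30 ± 5.99) and 535 over small-chip cells (22.5 ± 87.9). Gstm3 reached 985 (77 ± 179), 131 (8.26 ± 25.5) and 1053 (29.3 ± 169) in the same order of chips. Gstm4 had the narrowest range in the large chip, with 221 (49.1 ± 54), 320 (33.1 ± 74.8) and 215 (14.8 ± 43.4). Gstm6 reached 627 (123 ± 139), 291 (20.0 ± 61.4) and 1464 (56.1 ± 242). Every SD in the medium and small chips exceeded its mean.

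Of the 5 genes, 4 averaged at least 2-fold more in the large than in the small chip, with log2 ratios of mean values (pseudocount 1) of 1.67 for Gstm4, 1.41 for Gstm2, 1.37 for Gstm3 and 1.12 for Gstm6, against 0.66 for Gstm1. Across the 8813 genes detected (above 0) in 20% of cells or more, 41.9% met the same limit and the median log2 ratio was 0.72, so a large-chip excess was common. Under a 50% spike-in share 2 members met it, Gstm2 (1.60) and Gstm6 (1.24), against 26.7% of genes, and Gstm4 (0.39), Gstm3 (0.02) and Gstm1 (-0.23) did not. Against the medium chip 4 members met the limit (Gstm2 4.24, Gstm3 3.07, Gstm6 2.57 and Gstm1 1.10) and Gstm4 (0.56) did not, against 37.5% of genes. Under the spike-in limit Gstm2 (4.42) and Gstm3 (1.49) met it, against 24.8% of genes, while Gstm6 had 0.75, Gstm1 -0.53 and Gstm4 -0.95.

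Single cells carried much of the small-chip means. Cell 36 held 92.3% of the Gstm3 sum, cell 18 held 66.9% of the Gstm6 sum and cell 38 held 61% of the Gstm2 sum. Without the highest small-chip cell of each gene the large to small log2 ratios were 4.55 for Gstm3, 2.64 for Gstm2, 2.63 for Gstm6, 2.26 for Gstm4 and 0.97 for Gstm1. Under the spike-in limit cell 36 held 92.6% of the small-chip Gstm3 sum over 12 cells, so the ratio of 0.02 rests on it. Without the highest of these 12 cells for each gene the log2 ratios were 3.50 for Gstm3, 2.36 for Gstm6, 2.20 for Gstm2, 0.95 for Gstm4 and 0.18 for Gstm1. Without the highest medium-chip cell the large to medium ratios were 4.52 for Gstm2, 3.95 for Gstm3, 3.41 for Gstm6, 1.42 for Gstm1 and 1.05 for Gstm4. Without the highest of the 7 medium-chip cells under the spike-in limit they were 2.40 for Gstm3, 1.47 for Gstm6, -0.30 for Gstm1 and -0.47 for Gstm4, and Gstm2 was then listed at 0 in the other 6 cells.

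The second axis of the data was the order of the columns in the deposited table, positions 1 to 149. The table's name mentions WaveCrest, but the sources used here do not give how or by which genes that order was set. The members and the landmark genes below may themselves have entered it. It ran alongside a landmark score, the mean z-score of 6 pericentral genes (Cyp2e1, Cyp1a2, Glul, Gulo, Oat and Slc1a2) minus that of 6 periportal genes (Cyp2f2, Ass1, Asl, Hal, Sds and Pck1). The Spearman rho between position and score was 0.94 in the large, 0.91 in the medium and 0.82 in the small chip, so both axes rank the cells nearly alike and are not separate evidence. The large-chip cells were divided by position into 27 early cells (columns 2 to 32), 27 middle cells (33 to 105) and 26 late cells (114 to 149). Cyp2e1, the ethanol-inducible P450, averaged 13226 ± 7385 in late and 37.3 ± 80.8 in early cells, and Cyp2f2, a periportal P450, averaged 255 ± 694 in late and 4880 ± 1493 in early cells. The late cells are therefore the pericentral end.

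The late, pericentral cells held most of the Gstm2 in the large chip. Gstm2 ran from 0 over a median of 0 to 11.6 in early cells, from 0 over 0 to 98.7 in middle cells and from 8.93 over 85.1 to 994.6 in late cells. The early and late ranges overlapped only between 8.93 and 11.6. It was above 0 in 7 of 27 early, 9 of 27 middle and 26 of 26 late cells, and at 10 or more in 1, 5 and 24. Late cells averaged 178 ± 234, against 1.34 ± 3.07 in early cells. With a pseudocount of 1 added to each mean this is a fold of 76.7 (log2 6.26). The early mean was near that pseudocount, so the size of this fold depends on it. All 12 large-chip cells with 100 or more were late cells, at columns 115 to 149.

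Gstm6 and Gstm3 were also higher in late cells, but from a base already present in early cells. Gstm6 was above 0 in 24 of 27 early, 16 of 27 middle and 24 of 26 late cells, with medians of 98.8, 5.10 and 184. Its late mean was 225 ± 154 and its early mean 86.6 ± 64.3, a fold of 2.58 with the same pseudocount. Gstm3 was above 0 in 19, 11 and 24 cells of the same groups, with medians of 9.96, 0 and 79.3. Its late mean was 189 ± 282 and its early mean 31.1 ± 39.7, a fold of 5.93 with the same pseudocount, and the late SD exceeded the mean. The early and late ranges of both genes overlapped from 0 upward.

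Gstm1 and Gstm4 differed least between the ends. Gstm1 ran from 198 over a median of 2685 to 8419 in early, from 12.3 over 1677 to 9309 in middle and from 59.5 over 4092 to 15296 in late cells, and its late mean of 5596 ± 3878 was 1.87 times the early mean of 2987 ± 2182. Gstm4 was above 0 in 24 early, 13 middle and 25 late cells with medians of 45.2, 0 and 82.7. Its late mean was 79 ± 57.6 and its early mean 48.7 ± 45.5, a fold of 1.61 with the same pseudocount. For all 5 genes the difference of the means was smaller than the SD over late cells. Of the 8813 genes, 13.1% were at least 2-fold higher in late than early cells, as were 3 members (Gstm2, Gstm3 and Gstm6). Without the highest late cell of each gene the log2 late to early ratios were 5.97 for Gstm2, 2.30 for Gstm3, 1.26 for Gstm6, 0.80 for Gstm1 and 0.58 for Gstm4.

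**Figure D2:**
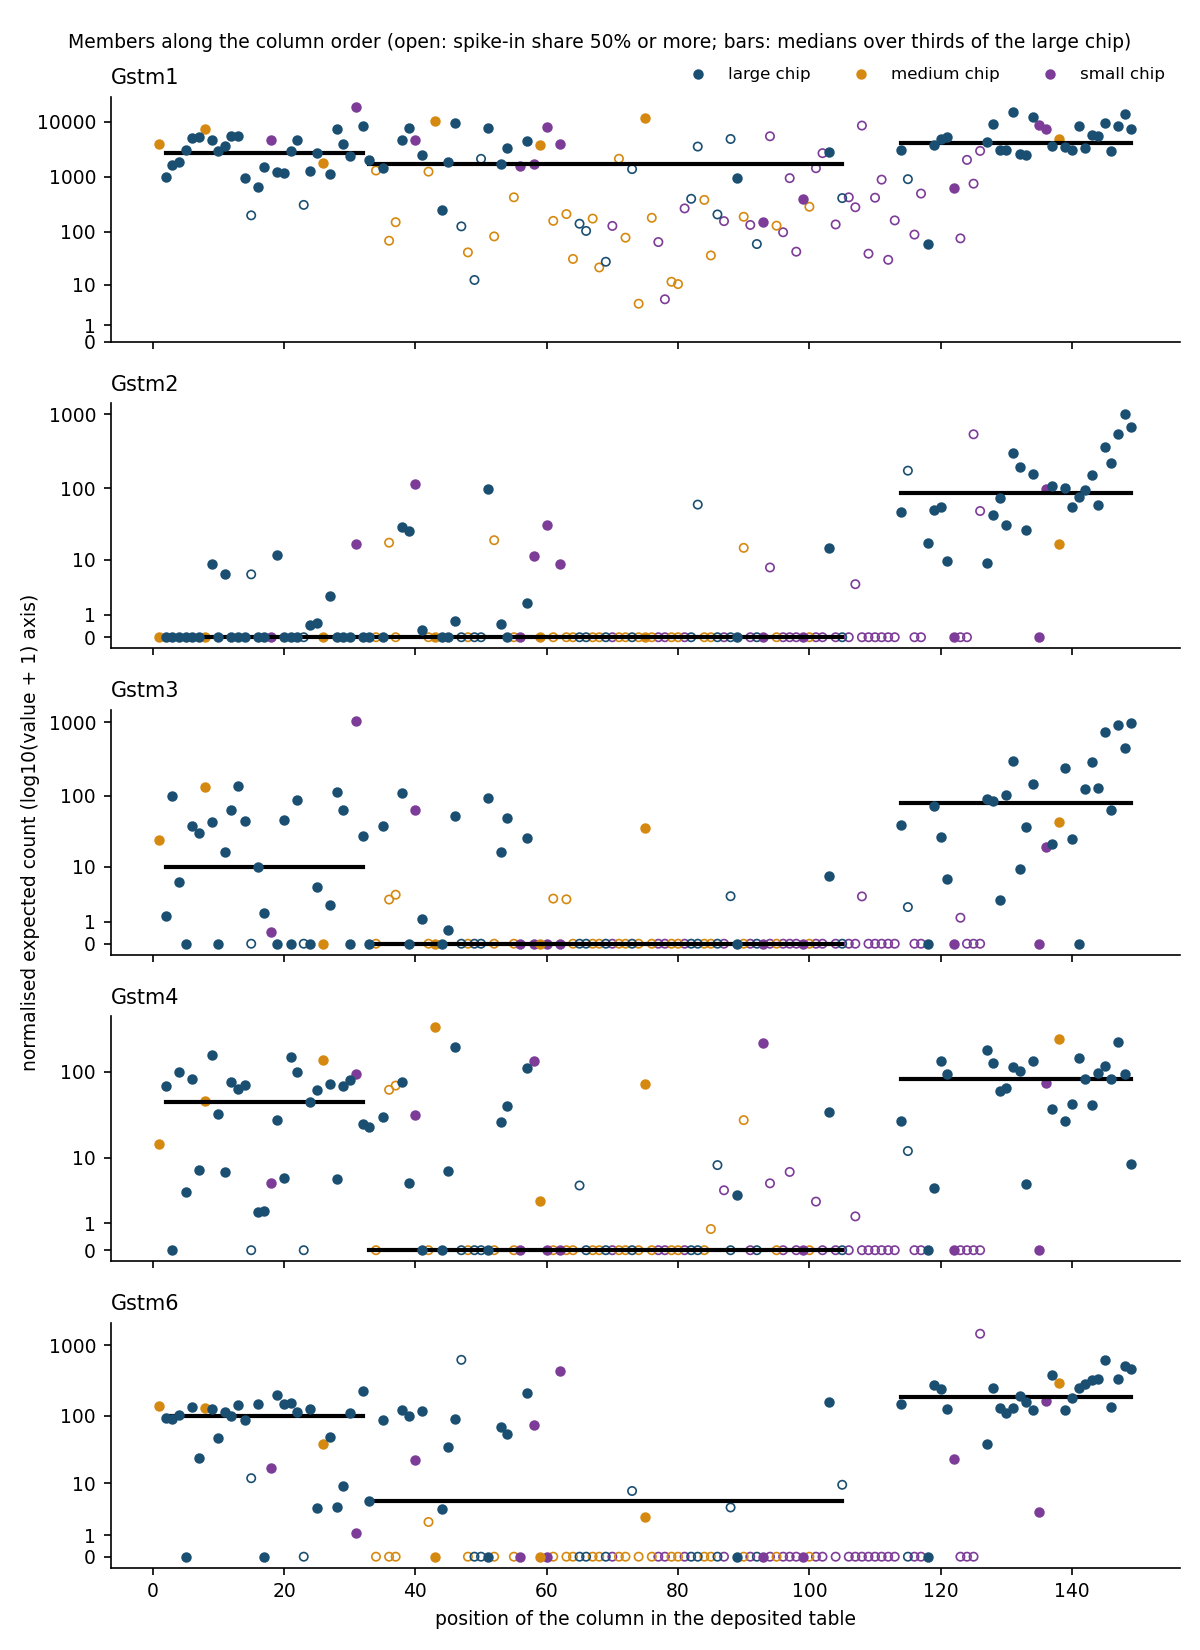
Normalised expected counts (log10(value + 1) axis) of the 5 genes against the column position of all 149 cells, coloured by chip, with open points for a spike-in share of 50% or more and bars at the medians of the early, middle and late large-chip cells. Gstm2 lies at or near 0 in most early cells and between 8.93 and 994.6 in late cells, while Gstm1, Gstm4 and Gstm6 have medians well above 0 at both ends and lower ones in the middle.

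The middle cells were lower than both ends in Gstm1, Gstm3, Gstm4 and Gstm6, and they were also the cells with the highest spike-in share, a median of 41% against 4.02% in early and 2.32% in late cells. They had a median of 5005 mouse genes above 0, against 7388 in early and 7802 in late cells. The 64 cells under a 50% spike-in share were divided anew into 22 early (columns 2 to 28), 21 middle (29 to 120) and 21 late cells (121 to 149). This middle group took in cells counted as early or late above, so the filter and the moved bounds cannot be told apart. Its means of Gstm1 (3680, against 2970 early) and Gstm6 (97.3, against 90.2 early) were not below the early ones. Those of Gstm3 (29.8, against 34) and Gstm4 (42.3, against 51.9) stayed slightly below by much less than their spread. Gstm2 then averaged 1.37 ± 3.20 in early, 16.3 ± 26.5 in middle and 204 ± 253 in late cells.

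As a Spearman rho with column position over the 80 large-chip cells, the gradient was 0.72 for Gstm2, 0.36 for Gstm6, 0.31 for Gstm3, 0.28 for Gstm1 and 0.19 for Gstm4. With the landmark score it was 0.70, 0.36, 0.32, 0.21 and 0.17 in the same order of genes. A rho of 0.3 or more was reached by 3 members on either axis, against 2.00% of the 8813 genes on the column axis and 1.88% on the score. A rho of -0.3 or less was reached by 0 members, against 4.82% of genes (columns) and 5.63% (score). Gstm2 ranked 18 of 8813 on both axes. The median rho with position was 0.31 over the members and -0.03 over all genes tested. These cells share 1 mouse and 1 chip and differ in the number of genes detected, so the values are descriptions.

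The members also followed the number of genes detected in a cell. Over large-chip cells the rho with the number of genes above 0 was 0.48 for Gstm1, 0.50 for Gstm2, 0.58 for Gstm3, 0.62 for Gstm4 and 0.60 for Gstm6, against a median of 0.37 over all genes. With that number held constant, the partial rho with column position was 0.72 for Gstm2, 0.30 for Gstm6 (just under the limit of 0.3), 0.23 for Gstm3, 0.20 for Gstm1 and 0.07 for Gstm4. Gstm2 alone among the members then met the limit, against 1.29% of genes. Among the 64 cells under the spike-in limit the rho with position was 0.84 for Gstm2, 0.54 for Gstm6, 0.42 for Gstm3, 0.40 for Gstm1 and 0.26 for Gstm4, so 4 members met it, against 3.72% of genes. With the score 4 met it as well (Gstm2 0.81, Gstm6 0.55, Gstm3 0.44 and Gstm1 0.33), against 4.07% of genes, and 0 members reached -0.3 or less, against 7.01% (columns) and 7.22% (score). Along the columns of these 64 cells the spike-in share fell (rho -0.55, against -0.37 over all 80 cells). The number of genes above 0 rose (0.34, against 0.22), and the partial rho above covers all 80 cells only. The part of either in the higher values was not tested. Leaving out each large-chip cell in turn kept Gstm2 between 0.71 and 0.735 and Gstm6 between 0.34 and 0.38, while Gstm3 ranged from 0.28 to 0.34 and met the limit in 62 of 80 cases. Without the 6 large-chip cells that held endothelial markers the rho was 0.71 for Gstm2, 0.38 for Gstm6, 0.33 for Gstm3 and 0.31 for Gstm1. So 4 members met the limit, Gstm1 only just, and the share of all genes was not computed for this filter. The filter did not use bile duct markers.

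In the medium and small chips 0 members reached a rho of 0.3 over all cells on either axis. A rho under -0.3 was found for Gstm4 in the small chip (column position) and for Gstm1 in the medium chip (score, -0.38). With column position the rho in the medium chip (30 cells) was 0.08 for Gstm2, -0.24 for Gstm4, -0.25 for Gstm3, -0.26 for Gstm6 and -0.27 for Gstm1, against a median of -0.18 over all genes. In the small chip (39 cells) it was -0.05 for Gstm6, -0.06 for Gstm1, -0.10 for Gstm2, -0.11 for Gstm3 and -0.36 for Gstm4, against -0.11 over all genes. Gstm2 was above 0 in 4 medium-chip cells and 10 small-chip cells, which leaves little to rank. Its rho of 0.61 over the 7 medium-chip cells under the spike-in limit rests on 1 cell above 0. In the small chip its highest cell (535) was among the 13 last columns, where the other 12 cells included 10 at 0. A gene with 1 sign in all 3 chips and a mean rho of 0.2 or more was counted as graded over chips, and 0 members met this on either axis, against 0.613% of genes with the score and 0.692% with position. Toward the periportal end 0 members met it, against 16.5% and 15.4% of genes.

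**Figure D3:**
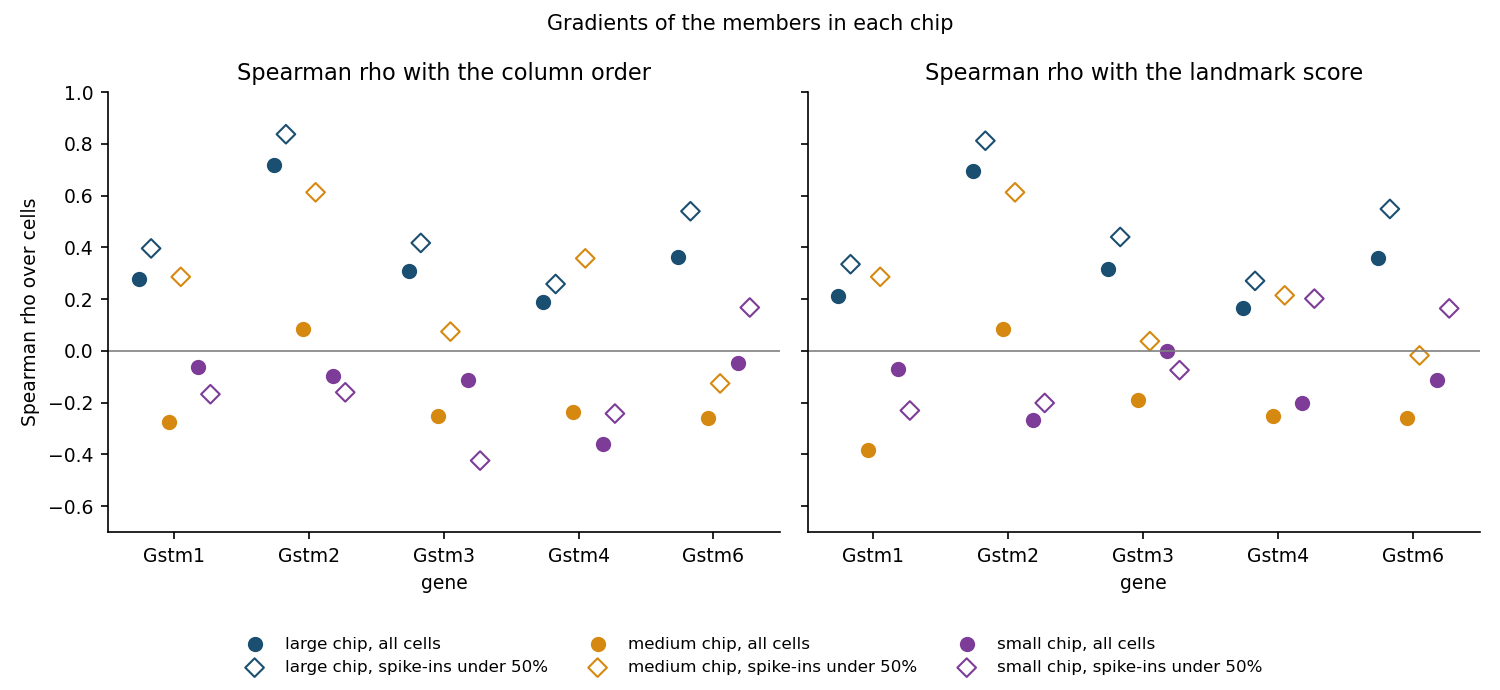
Spearman rho of each gene with column position (left) and with the landmark score (right), by chip, for all cells (circles) and for cells with a spike-in share under 50% (diamonds, 64 large, 7 medium and 12 small cells). Gstm2 has the highest large-chip values on both axes (0.72 and 0.70, or 0.84 and 0.81 under the spike-in limit), and most medium-chip and small-chip circles lie below 0.

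Within the 26 late cells the gradient went on. The rho with position there was 0.68 for Gstm2, 0.66 for Gstm6, 0.61 for Gstm3, 0.41 for Gstm1 and 0.21 for Gstm4. Among the 27 early cells all 5 values lay between -0.06 and 0.09, and among the 27 middle cells between -0.40 and -0.16. Among the final columns of the table were large-chip cells rich in several members. At columns 145, 147, 148 and 149 Gstm2 was 365, 542, 995 and 681, Gstm3 was 742, 930, 454 and 985, and Gstm6 was 627, 334, 514 and 468. Glul, the glutamine synthetase of the hepatocytes that border the central vein, was 1474, 612, 2259 and 5018 in these 4 cells. The cell at column 146 between them had Gstm2 at 222, Gstm3 at 64.8, Gstm6 at 134 and Glul at 75.4. The 4 cells were picked for high values near the end of the table, with column 146 passed over, and Glul is one of the landmark genes.

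Cells with more of one member tended to have more of the others. Over the 80 large-chip cells the median rho of the 10 pairs was 0.53, from 0.42 (Gstm2 with Gstm4) to 0.70 (Gstm1 with Gstm3). Under the spike-in limit the median was 0.43, from 0.30 (Gstm3 with Gstm4) to 0.61 (Gstm1 with Gstm3, and Gstm2 with Gstm6). Gstm1 and Gstm3 are also the pair with the highest coding identity and with shared words, so reads assigned to the wrong copy could enter that rho, which was not tested. All members also followed the number of genes detected (rho 0.48 to 0.62 over large-chip cells). The rho of the pairs was not computed with that number held constant. All 5 members were above 0 in 32 of the 80 large-chip cells, 1 of 30 medium-chip cells and 3 of 39 small-chip cells. Gstm1 was the only member above 0 in 7, 15 and 20 cells.

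The genes that followed each member most closely differed among members. They were taken as the 5 of highest rho over the 64 large-chip cells under the spike-in limit, among the 7575 genes above 0 in 50% or more of these cells. Gstm2 went with Cyp1a2, a P450 that oxidises caffeine and is itself a landmark (0.83), Slco1b2, a hepatocyte uptake transporter (0.82), Cyp2c54, another P450 (0.82), Rgn, regucalcin (0.81), and Oat, ornithine aminotransferase and a landmark (0.79). Its rho with Cyp2e1 was 0.75 and with the periportal Cyp2f2 -0.71. Over these cells Cyp2c54 (median 0.56), Oat (0.535) and Gstm2 itself (4.36) were low, so many of the ranked values lay near 0. Gstm6 went with Ces2c, a carboxylesterase (0.72), Pon1, paraoxonase (0.72), and the P450 genes Cyp2c40 (0.68) and Cyp2c68 (0.66), and with 2810007J24Rik (0.63). The Cyp2c genes belong to a family of similar genes, and read sharing among them was not measured here.

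Gstm1 went with other enzymes of detoxification, Ephx1, the microsomal epoxide hydrolase (0.63), Gstm3 (0.61), Gstt1 and Gsta3, transferases of the theta and alpha classes (both 0.59), and Ugdh, which makes the donor for glucuronidation (0.56). Ephx1 and Ugdh had a rho of 0.13 and 0.17 with the landmark score in these cells, against 0.33 for Gstm1. Gstm3 went with Gstm1 (0.61), Ndufaf6, a mitochondrial complex I assembly factor (0.58), Cyp1a2 (0.56), Irs1, an insulin receptor substrate (0.52), and Slc16a10, an aromatic amino acid transporter (0.52). Gstm4 went with Cbr1, a carbonyl reductase (0.59), Eef1e1 (0.58), Hspb6, a small heat shock protein (0.54), Idh3a, a subunit of the mitochondrial isocitrate dehydrogenase (0.54), and Ccdc107 (0.51). The median rho over all these genes was 0.07 for Gstm1, 0.02 for Gstm2, 0.02 for Gstm3, 0.06 for Gstm4 and near 0 for Gstm6.

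**Figure D4:**
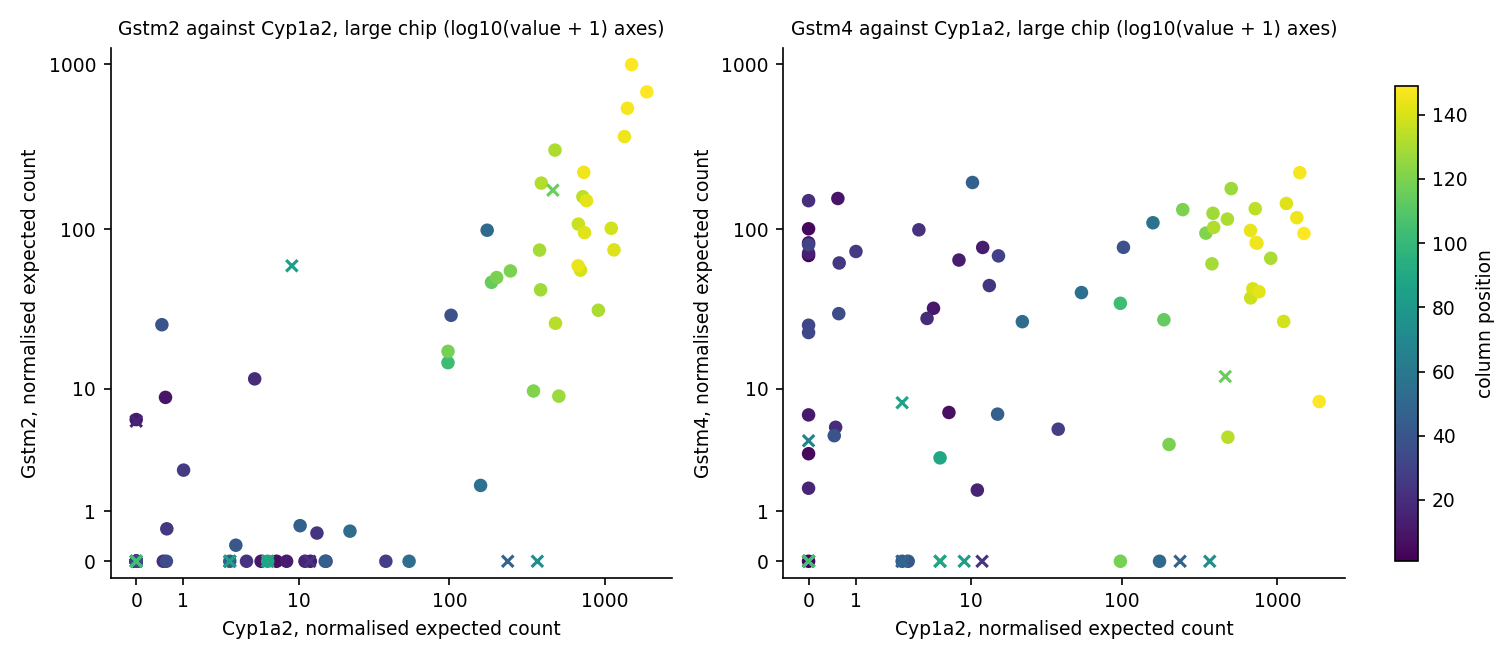
Gstm2 (left) and Gstm4 (right) against Cyp1a2 in the 80 large-chip cells, as normalised expected counts on log10(value + 1) axes, coloured by column position, with crosses for a spike-in share of 50% or more. Gstm2 is high where Cyp1a2 is high (rho 0.77), while Gstm4 follows Cyp1a2 less closely (rho 0.37) and is above 0 in many cells where Cyp1a2 is low.

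Other genes of glutathione chemistry did not share 1 direction in the large chip. Counts are of genes with a rho of 0.3 or more, or -0.3 or less, with the landmark score, against 1.88% and 5.63% of all genes, and listed genes detected in under 20% of cells were left out. The other mu-class rows, Gstm5 (-0.03) and Gstm7 (-0.05), met neither. Of 14 other glutathione transferases (15 listed) 3 were pericentral and 2 periportal, with a median of 0.02. Gsta3, of the alpha class, averaged 3195 ± 1387 in late and 1069 ± 699 in early cells (rho 0.52), and Mgst1, a membrane-bound transferase, 22348 ± 7232 in late and 13100 ± 3451 in early cells (0.39). Gstp1, of the pi class, ran the other way with 9231 ± 4096 in late and 16136 ± 6302 in early cells (-0.58).

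Of 9 genes that make and recycle glutathione (10 listed), 0 were pericentral and 1 periportal, which is near the share among all genes, and the median was -0.15, against -0.04 over all genes. Cbs, the cystathionine synthase that leads to cysteine, averaged 116 ± 97.7 in late and 289 ± 320 in early cells (-0.46), and Gclm, the modifier subunit of the rate-limiting ligase of glutathione synthesis, 31.3 ± 25.3 in late and 65.2 ± 62.7 in early cells (-0.28). Of 3 peroxidases 1 was periportal, Gpx1, a glutathione peroxidase (4618 ± 1847 in late and 6318 ± 2224 in early cells, -0.39). Of 3 exporters of conjugates (4 listed) 0 met either limit, and Abcc2, the pump into bile, had 0.23. Among the 64 cells under the spike-in limit Abcc2 (0.31) met the limit, and the counts were 4 pericentral and 2 periportal of the 14 other transferases, 0 and 2 of the 9 glutathione genes and 0 and 1 of the 3 peroxidases, against 4.07% and 7.22% of all genes.

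Regulators known to act on transferase genes divided in the same chip. NRF2, encoded by Nfe2l2, is the factor that induces many detoxification genes under oxidative or electrophilic stress, and KEAP1 holds it in check. Of 5 NRF2 regulators (Nfe2l2 0.12, Keap1 -0.14) and 7 of 10 listed NRF2 targets outside the transferases (Txnrd1 -0.17), 0 met either limit. Of 5 xenobiotic receptors and partners 3 were pericentral and 0 periportal, against 1.88% and 5.63% of all genes, with a median rho of 0.40. Nr1i2 (-0.14) and Rxra (-0.15) met neither limit. Nr1i3, the receptor CAR, averaged 56.9 ± 54 in late and 1.73 ± 7.71 in early cells (0.64). Ahr, the dioxin receptor, averaged 136 ± 130 in late and 71.9 ± 364 in early cells (0.70), where the SD shows that few cells carried the early mean. Por, the electron donor of the P450 enzymes, averaged 48.7 ± 44.9 in late and 15 ± 27 in early cells (0.40). Of 4 known targets of these receptors (8 listed) 2 were pericentral, Cyp3a11 (5728 ± 4827 in late and 17.1 ± 42.8 in early cells, 0.71) and the landmark Cyp1a2 (706 ± 443 in late and 4.96 ± 8.39 in early cells, 0.70). Under the spike-in limit 3 of these 4 targets and 3 of the 5 receptors and partners were pericentral, against 4.07% of all genes.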

How the data were processed

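The authors deposited 1 table of normalised expected counts, treated here as a signal, for 149 cells. Per the submitters' processing notes, CASAVA 1.8.2, Bowtie 0.12.9, RSEM 1.2.3 and mm10 were used. The table's name mentions SCnorm and WaveCrest, and the normalisation, cell filter and column order are otherwise not given in the sources used here. No column was left out, no doublet caller was run, and the depth is unknown.

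Scores used log2(value + 1) and z-scores within each chip, leaving out the gene examined. A rho of 0.3, a fold of 2 and detection in 20% of cells were the limits. The named genes were all 5 members, the 5 genes most like each, and up to 3 genes of each list by size of rho. Members and lists were chosen with earlier results of these data known. Methods were tested on simulated data. Python 3.11.15 was used with Biopython 1.88, matplotlib 3.10.9, scipy 1.17.1, pandas 2.3.3 and numpy 2.4.6. Transcripts and promoters came from GENCODE M21 and RefSeq GRCm38.p6. Alternatives covered the pseudocount, rescaling, Pearson r, landmarks, spike-in and endothelial filters, chips left out, and number of genes held constant.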

Additional observations from a re-analysis of the deposited data

How the results depend on the processing

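The count of members at least 2-fold higher in the large than the small chip was 4, and it was 2 where spike-ins took under 50%. With medians over cells it was 4 of another set, since Gstm1 (2.59) met the limit and Gstm2 (0.58) did not. Cells rescaled to equal mouse sums gave 3, since Gstm2 (0.96) fell just under the limit, and Gstm1 then had 0.22 in place of 0.66. Over the 14855 genes above 0 in any cell, 32.6% met that limit. The count with a large-chip rho of 0.3 or more was 3 on the score and 3 on the column order, and it was 1 (Gstm2) on both with the number of genes above 0 held constant. Pearson r gave 2 on both axes, and leaving out single cells gave 2 to 3 on the score and 2 to 4 on the column order. Over chips the count was 0, and 1 without the small chip (Gstm2, mean 0.39) or under the spike-in limit (Gstm4, 0.23, with 7 and 12 cells in the medium and small chips). Without the large chip Gstm1 (-0.23) and Gstm4 (-0.23) met the limit toward the periportal end, so the direction for Gstm4 over chips depended on the cells used. The median rho between members was 0.53, and 0.43 under the spike-in limit. With the large-chip cells divided by column into 5 groups in place of 3, 4 members were at least 2-fold higher in the last than the first group. With 3 groups it was 3 members, against 13.1% of genes. No share of all genes was computed for 5 groups, Pearson r, medians, rescaled cells, or cells or chips left out. Those counts therefore cannot be set against all genes. With 10 or more as the detection limit Gstm2 was found in 37.5% of large-chip cells. The cause of each change was not tested. No paired analysis was possible because the labels number cells within a chip and do not pair cells between chips. With 1 mouse and unknown depth, small values and small rho cannot be resolved.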
